A study of Drosophila melanogaster with 60 samples.

Results

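The cytochrome P450 (Cyp) genes were described in RNA of abdominal fat tissue of Drosophila melanogaster. Members were chosen by symbol: every gene whose FlyBase symbol is Cyp followed by a family number, a subfamily letter and a gene number, which gave 83 of the 13969 genes in the deposited tables. By clan, the deep branches of the P450 tree, 38 belonged to CYP3, 32 to CYP4, 9 to the mitochondrial clan and 4 to CYP2. The largest families were Cyp6 with 23 genes, Cyp4 with 22, Cyp12 with 7, and Cyp9 and Cyp313 with 6 each, while Cyp28 had 4 and Cyp309 had 2. The study sampled tissue around the day to ask how temperature and the circadian clock set daily gene expression.

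P450 enzymes are haem proteins that put an oxygen atom into a lipophilic substrate. Those of the endoplasmic reticulum take electrons from the reductase Cpr, and those of mitochondria from the adrenodoxin reductase dare through ferredoxins. In insects, genes of the CYP3 clan and many of Cyp4 and Cyp12 are known for handling plant toxins and insecticides, CYP2 and mitochondrial genes include the enzymes that make and break down the moulting hormone ecdysone, and Cyp4g1 makes cuticular hydrocarbons in oenocytes, cells of the abdominal wall that lie beside the fat body. The fly fat body combines tasks of liver and adipose tissue, detoxification among them.

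Each library came from 10 mated females about 3 days old, kept on sucrose and yeast food for 5 days of 12 h light and 12 h dark. Tissue was the fat left on the epidermis after gut, ovaries and Malpighian tubules had been removed, so it held other cells of the body wall too. Wild-type flies were w1118, held at 25 °C (24 libraries) or 18 °C (24 libraries) and sampled every 2 h. Mutant flies carried Clk-Jrk, a dominant-negative allele of the circadian activator Clock (Clk), backcrossed 7 times to w1118, and were held at 25 °C and sampled every 4 h (12 libraries). Each time had 2 replicates, which the labels do not call separate cultures, so p-values measure the spread between these samples. Times are zeitgeber times (ZT), hours after lights on. The mutant at 18 °C was not analysed here. There was 1 backcrossed mutant line, so the allele and any strain difference still linked to it cannot be told apart.

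Total estimated counts ran from 4923858 to 46590109 per library, and P450 genes took between 4.55% and 10.7% of them. In the 18 °C series, replicate 1 held the same values at ZT 2 as at ZT 20 for every gene. Both libraries were left out because their time was unknown, which gave n = 22. Each of the 8 fat body markers was detected in each group, with summed levels of 52310 to 180000 TPM (a measure of transcript abundance that allows for transcript length) in wild type at 25 °C, 13560 to 112100 TPM at 18 °C and 115300 to 173800 TPM in Clk-Jrk. The summed fat body level also separated the replicate series at 18 °C, at 13560 to 45570 TPM in replicate 1 and 57830 to 112100 TPM in replicate 2. In wild type at 25 °C the series overlapped, with medians of 58740 and 143500 TPM in replicates 1 and 2. Markers of oenocytes were high in every library, at 3503 to 8738 TPM in sum. In 10 wild-type libraries the summed markers of gut, ovary, or neurons and photoreceptors passed 5000, 9000 or 1000 TPM: at 25 °C these were replicate 1 at ZT 2, 4, 6, 10, 14 and 24 and replicate 2 at ZT 14 and 16, and at 18 °C replicate 1 at ZT 24 and replicate 2 at ZT 12. In whole-tissue RNA, fewer cells of a type and less RNA per cell cannot be told apart. Clk itself had 2.30, 4.30 and 8.39 TPM (lowest, median, highest) in wild type at 25 °C, 1.35, 3.46 and 7.43 TPM at 18 °C, and 1.33, 3.22 and 5.77 TPM in Clk-Jrk. Its level did not differ past the test in the mutant (log2 difference -0.21 ± 0.15 SE, adjusted p = 0.249), and a transcript level does not check a point mutation.

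P450 RNA in this tissue was mostly Cyp4g1 (FBgn0010019), the oxidative decarbonylase of hydrocarbon synthesis. Cyp4g1 had 20890, 26350 and 52470 TPM in wild type at 25 °C, 25690, 31530 and 54730 TPM at 18 °C, and 23360, 28560 and 35410 TPM in Clk-Jrk, so the 3 groups overlapped over most of their range. Its median share of all P450 TPM was 91.2% in wild type at 25 °C, 91.3% at 18 °C and 76.1% in Clk-Jrk. Within wild type the replicate series stood apart, with medians of 31960 TPM in replicate 1 and 22750 TPM in replicate 2 at 25 °C, and 42220 and 27750 TPM at 18 °C. Its level moved with the summed oenocyte markers across libraries of wild type at 25 °C (Pearson r = 0.89, Spearman rho = 0.89, n = 24, each permutation p = 1e-05, the smallest that 100000 permutations can give, adjusted 2.7e-05 and 3e-05 over 27 relations). Without the 2 libraries farthest from the median marker level r was 0.82, and within replicates 1 and 2 it was 0.93 and 0.98. At 18 °C r was 0.82 and rho 0.66 (n = 22, permutation p = 1e-05 and 0.00096, adjusted 2.7e-05 and 0.00216), r without the 2 farthest libraries was 0.77, and r within replicates was 0.79 and 0.67. In Clk-Jrk r was 0.66 and rho 0.58 (n = 12, permutation p = 0.0209 and 0.0523, adjusted 0.0258 and 0.0615), so the rank relation did not pass there, r without the 2 farthest libraries was 0.61, and r within replicates was 0.5 and 0.73. Genes of the relation were picked after their values were seen, and TPM values of a library share its total. Neither the temperature nor the Clk-Jrk comparison moved Cyp4g1 past the test (0.19 ± 0.11, adjusted p = 0.162, and 0.28 ± 0.15, adjusted p = 0.153, log2 ± SE).

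Every other P450 gene was far below Cyp4g1. In wild type at 25 °C, 9 of the 83 genes had a median of at least 100 TPM, 28 lay between 10 and 100, 27 between 1 and 10, and 19 under 1 TPM. The corresponding counts were 8, 32, 21 and 22 at 18 °C and 11, 28, 24 and 20 in Clk-Jrk. After Cyp4g1, the highest medians in wild type at 25 °C were those of Cyp6d5 (601 TPM), Cyp6g1 (408 TPM), known for resistance to DDT and neonicotinoids, Cyp6w1 (321 TPM), also tied to DDT resistance, Cyp4e2 (167 TPM), Cyp9b2 (122 TPM), Cyp12a4 (116 TPM), tied to lufenuron resistance, Cyp6a8 (103 TPM), inducible by xenobiotics such as barbiturates, and Cyp9f2 (100.3 TPM). The next 6 were Cyp6a23, Cyp4aa1, Cyp4p1, Cyp28d1, Cyp12b2 and Cyp4e3, with medians from 66.3 down to 34.5 TPM. The genes with a median of at least 10 TPM came from CYP3 (20 of 38), CYP4 (11 of 32), the mitochondrial clan (5 of 9) and CYP2 (1 of 4).

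**Figure D1:**
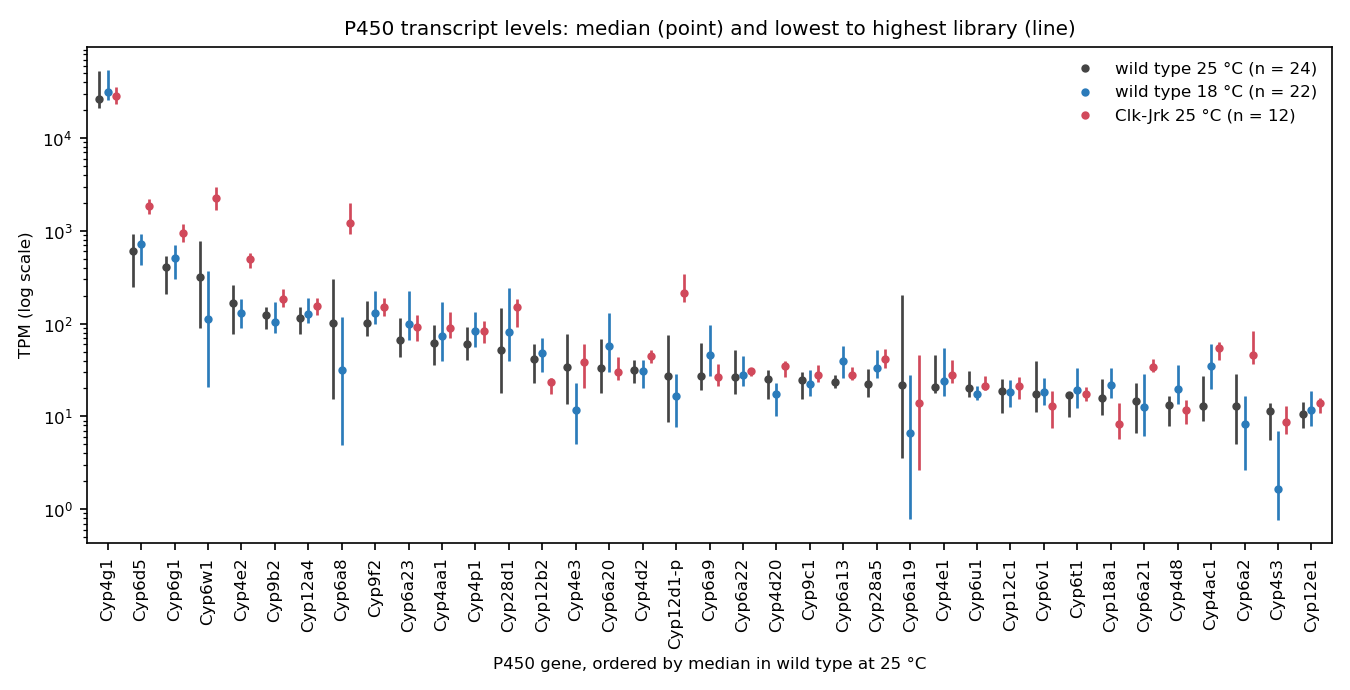
TPM on a log scale of the 37 P450 genes with a median of at least 10 TPM in wild type at 25 °C; points are medians and lines run from the lowest to the highest library in wild type at 25 °C (n = 24), at 18 °C (n = 22) and in Clk-Jrk at 25 °C (n = 12). Cyp4g1 stands above 20000 TPM in every group, and the Clk-Jrk lines of Cyp6d5, Cyp6g1, Cyp6w1, Cyp4e2, Cyp6a8 and Cyp12d1-p lie above both wild-type lines.

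By family, the levels of the 23 Cyp6 genes had a median of 17.4 TPM in wild type at 25 °C and ran from 0.178 TPM (Cyp6d2) to 601 TPM (Cyp6d5). The 22 Cyp4 genes had a median of 9.60 TPM, the 6 Cyp9 genes 15.1 TPM and the 7 Cyp12 genes 18.9 TPM. Of Cyp28, Cyp28d1 and Cyp28a5 were at 51.8 and 22.2 TPM, Cyp28d2 at 1.34 TPM and Cyp28c1 at 0.0530 TPM. In the Cyp309 pair, Cyp309a1 had 4.93 TPM and Cyp309a2 0.311 TPM. The 6 Cyp313 genes were scarce: Cyp313a4 and Cyp313b1 had 7.79 and 6.22 TPM, and each of the other members was under 0.3 TPM in the median library. Of the CYP2 clan, Cyp18a1, which inactivates ecdysteroids by 26-hydroxylation, was the most abundant at 15.9 TPM, and Cyp303a1, needed for sensory bristles, was at 0.423 TPM. Cyp301a1, a mitochondrial P450 of cuticle formation, was at 0.854 TPM. No member was at 0 in every library.

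After the filter on low counts, 72 members were tested. The 11 that were not were Cyp28c1, Cyp308a1, Cyp6d2, Cyp313a1, Cyp313a2, Cyp313a5, Cyp316a1, Cyp4c3, Cyp4d21, Cyp4p2 and Cyp49a1. Of the 72, 71 would have passed in the pooled wild-type libraries of both temperatures. The exception was Cyp12d1-d, a near-identical copy of Cyp12d1-p that was listed above 0 in 13 libraries and never above 3.83 TPM. Cyp309a2 reached the count cut in 4 wild-type libraries at 25 °C, 11 at 18 °C and 12 in Clk-Jrk. At 25 °C it thus met the cut mostly in the group where it was high. In 20 members, Cyp12d1-d, Cyp6a21, Cyp9b2, Cyp4e2, Cyp4ac1, Cyp4ac2 and Cyp4s3 among them, most nonzero counts were more than 0.01 away from a whole number, so part of their counts may be an estimated split of reads shared with other genes. At a tolerance of 0.001 there were 22, Cyp6g1 and Cyp6w1 being the additional members.

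The comparison of Clk-Jrk with wild type at 25 °C asked which levels depend on a working clock gene. Excluding Cyp4g1, P450 RNA was higher in the mutant in sum. Summed TPM of the other 82 members was 1834, 2957 and 3987 (lowest, median, highest) in all wild-type libraries at 25 °C. It was 7511, 8910 and 10310 in Clk-Jrk, with no overlap. Such a sum weighs abundant genes most. Medians of Cyp6w1, Cyp6d5, Cyp6a8 and Cyp6g1 were 321, 601, 103 and 408 TPM in these wild-type libraries. In Clk-Jrk they were 2233, 1858, 1214 and 940 TPM. On log2(TPM + 1), 44 of the 72 tested members were above 0 and 28 below. Of the 72 genes tested, 38 rose and 6 fell in Clk-Jrk, and 28 did not pass the edgeR quasi-likelihood test (12 libraries in each group, adjusted p under 0.05 over all 9348 genes). Among all genes tested, 18.6% were higher and 24.9% were lower. The median log2 difference of the P450 genes was 0.47, beside -0.08 for all genes. The numbers that rose, fell and did not pass were 22, 4 and 9 in CYP3, 11, 0 and 14 in CYP4, 4, 1 and 3 in the mitochondrial clan, and 1, 1 and 2 in CYP2.

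Wild-type and mutant libraries also differed in tissue markers. Of the fat body markers 4 of 8 were higher in Clk-Jrk, and 6 of 7 Malpighian tubule markers were lower, with a summed tubule level of 104 to 222 TPM in the 12 matched wild-type libraries and 14.9 to 113 TPM in Clk-Jrk. Medians of the summed fat body level in replicates 1 and 2 were 64750 and 146400 TPM in matched wild type. In Clk-Jrk they were 120600 and 141100 TPM, so this sum was higher in the mutant in replicate 1 only. Haemocyte markers (4 of 8) and 1 of 5 oenocyte markers were higher. Markers of muscle (6 of 12), ovary (5 of 16), neurons and photoreceptors (3 of 9) and gut (1 of 11) were lower. The part of muscle, haemocytes and oenocytes in the P450 counts was not tested. None of the 7 tubule markers was at 0 in all libraries of a group. With the summed fat body and tubule markers as covariates, a fit chosen after the values were seen, 10 genes were higher and none was lower at adjusted p under 0.05. Tubule sums of the groups met only between 104 and 113 TPM. Genotype and marker level were thus poorly separated in this fit, and a call lost in it names no cause. Without replicate 2, 15 P450 genes were higher and 1 was lower, and without replicate 1, 42 were higher and 1 was lower. Shares of all genes called in these fits are not set beside the counts, so a changed count need not be particular to P450 genes. The 10 genes past the test with covariates were Cyp309a2, Cyp6a8, Cyp12d1-p, Cyp6w1, Cyp9h1, Cyp4ac1, Cyp6a2, Cyp6d5, Cyp4e2 and Cyp6g1, and these were also higher under each of the other alternatives tried.

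Scaling shifted the whole comparison. The median over all genes was -0.07 with the scaling used here (mean log2 CPM), -0.31 with library totals and -0.28 on log2(TPM + 1), and the P450 median was 0.45, 0.23 and 0.15, above that of all genes in each case. On log2(TPM + 1), limma called 27 P450 genes higher and 12 lower, against 629 and 4550 of all genes.

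Libraries of the groups did not overlap in log2 CPM for 13 of the 72 tested genes, each higher in Clk-Jrk, and for 1.57% of all genes in that direction. They were Cyp309a2, Cyp6a8, Cyp12d1-p, Cyp6w1, Cyp9h1, Cyp4ac1, Cyp6a2, Cyp6d5, Cyp4e2, Cyp6a21, Cyp6g1, Cyp305a1 and Cyp28a5. No P450 gene was lower without overlap, and the share of all genes in that direction was not counted. For 10 of the 13 genes the TPM of every Clk-Jrk library also lay above that of every wild-type library at either temperature. The exceptions were Cyp4ac1, Cyp305a1 and Cyp28a5, and the share of all genes was not counted here either.

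**Figure D2:**
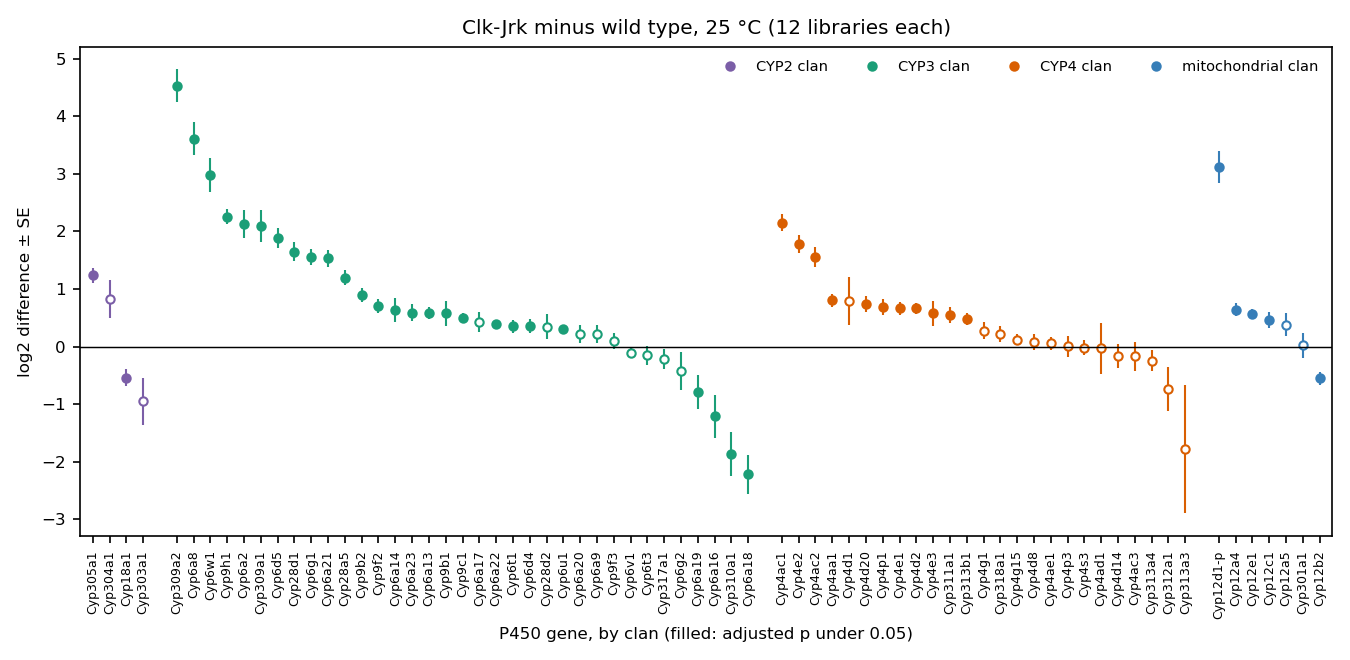
Log2 difference between Clk-Jrk and wild type at 25 °C (12 libraries each) for 71 tested P450 genes, ordered within each clan; bars are SE and filled points passed adjusted p under 0.05. Filled points above 0 number 38 and below 0 number 6, and the highest is Cyp309a2 at 4.54. Cyp12d1-d, with few counts, is left out.

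Among P450 genes with a wild-type median of at least 10 TPM, the largest increases were those of Cyp6a8, Cyp12d1-p and Cyp6w1. Cyp6w1 (FBgn0033065) had 88.6, 343 and 778 TPM in the 12 matched wild-type libraries and 1659, 2233 and 2958 TPM in Clk-Jrk. Its lowest mutant library was above the highest wild-type library, and the fitted increase was 7.93-fold (log2 2.99 ± 0.30 SE, adjusted p = 5.68e-06). Cyp6a8 (FBgn0013772) had 33.1, 152 and 301.7 TPM in wild type and 934, 1214 and 1980 TPM in Clk-Jrk. Again no library overlapped, and the increase was 12.2-fold (3.61 ± 0.29, adjusted p = 7.4e-07). Cyp12d1-p (FBgn0050489), a mitochondrial P450 tied to DDT resistance, went from 9.22, 29.7 and 75.3 TPM to 172, 214 and 340 TPM. This was 8.67-fold (3.12 ± 0.28, adjusted p = 2.24e-06), higher at 6 of 6 times. Its near-identical copy Cyp12d1-d was listed at or below 3.41 TPM in wild type and 1.61 TPM in Clk-Jrk. The split of reads between the copies is not resolved, so the increase may belong to either. Cyp6a2, whose alleles are tied to DDT resistance, had 6.36, 13.7 and 28.9 TPM in wild type and 36.5, 45.8 and 83.0 TPM in Clk-Jrk. Each mutant library exceeded each wild-type library, by 4.38-fold in the fit (2.13 ± 0.24, adjusted p = 1.74e-05).

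Levels of these 4 genes moved together in wild type at 25 °C. The 6 pairs had r from 0.81 to 0.93 and rho from 0.81 to 0.94 across libraries there (n = 24, each permutation p = 1e-05, adjusted 2.7e-05 and 3e-05), with Cyp6w1 and Cyp12d1-p the closest pair. The r was 0.79 to 0.96 without the 2 libraries farthest from the median, and 0.56 to 0.96 within replicates. In Clk-Jrk the pairs had r from 0.53 to 0.87 (n = 12, permutation p from 0.00052 to 0.0739) and rho from 0.63 to 0.87 (permutation p from 0.00039 to 0.0327). The pair of Cyp6a2 and Cyp6w1 did not pass on r there (0.53, adjusted p = 0.0831, rho 0.63, adjusted p = 0.0401), and without the 2 farthest libraries r over the pairs was 0.48 to 0.83. At 18 °C the replicate series of Cyp6w1 did not overlap, at 20.9 to 84.5 TPM in replicate 1 and 104 to 365 TPM in replicate 2, so the relations are given within each. There r ran from -0.43 (Cyp6w1 and Cyp6a8) to 0.4 in replicate 1 (n = 10) and from 0.13 (Cyp12d1-p and Cyp6a8) to 0.86 in replicate 2 (n = 12). The pairs were picked after the values were seen.

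Cyp6d5, the most abundant CYP3 gene, had 296, 646 and 853 TPM in wild type and 1532, 1858 and 2211 TPM in Clk-Jrk. The groups did not overlap and the increase was 3.69-fold (1.88 ± 0.17, adjusted p = 2.53e-06). Cyp6g1 (FBgn0025454) had 268, 418 and 533 TPM in wild type and 749.9, 939.9 and 1186 TPM in Clk-Jrk. Here too the groups were apart, with an increase of 2.94-fold (SE 0.15 on the log2 scale, adjusted p = 3.19e-06). Its neighbour Cyp6g2, also able to confer insecticide resistance, had a median of 1.39 TPM in wild type and 0.720 TPM in Clk-Jrk and did not pass the test (-0.43 ± 0.33, adjusted p = 0.303). Cyp6a21 went from 8.25, 15.0 and 23.1 TPM to 30.2, 34.1 and 41.2 TPM without overlap (2.90-fold, 1.53 ± 0.15, adjusted p = 3.27e-06). Of the remaining Cyp6 genes, Cyp6a22, Cyp6a13, Cyp6a14, Cyp6a23, Cyp6d4, Cyp6t1 and Cyp6u1 rose by less than 1 on the log2 scale, of which Cyp6a14, Cyp6d4 and Cyp6t1 did not keep their call in 7, 6 and 6 of 16 alternatives. Cyp6a17, which has a role in temperature preference, had medians of 5.60 TPM in wild type and 6.71 TPM in Clk-Jrk (0.43 ± 0.17, adjusted p = 0.0586). Cyp6a20, tied to aggression between males, had 33.2 and 29.8 TPM (0.22 ± 0.16, adjusted p = 0.287).

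The largest fold change was that of a scarce gene, Cyp309a2 (FBgn0041337). At 25 °C it reached the count cut of the filter in 4 wild-type and 12 mutant libraries. It had 0.0543, 0.311 and 0.823 TPM in wild type and 3.33, 5.12 and 8.66 TPM in Clk-Jrk. All mutant libraries were above all wild-type libraries, and the increase was 23.2-fold (4.54 ± 0.28, adjusted p = 5.81e-08). Its neighbour Cyp309a1 had 1.75, 6.28 and 14.8 TPM in wild type and 9.79, 19.1 and 32.9 TPM in Clk-Jrk. These ranges overlapped, with a 4.27-fold increase (2.09 ± 0.28, adjusted p = 7.13e-05) whose call was lost with the marker covariates (1.62, adjusted p = 0.417) and without replicate 2 (1.72, adjusted p = 0.0644). Its log2 difference was at least 1.595 in each of the 16 alternatives. In Cyp28, Cyp28d1, tied to nicotine tolerance, had 25.0, 53.0 and 146 TPM in wild type and 91.5, 151 and 185 TPM in Clk-Jrk. Its groups overlapped between 91.5 and 146 TPM, and the increase was 3.14-fold (1.65 ± 0.16, adjusted p = 4.74e-06), with the call lost in the same alternatives as that of Cyp309a1 at log2 differences of 1.18 and 1.49 (adjusted p = 0.176 and 0.0523). Cyp28a5 had medians of 23.2 and 41.3 TPM (1.199 ± 0.13, adjusted p = 1.66e-05), while Cyp28d2 did not pass (0.35 ± 0.21, adjusted p = 0.199).

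In Cyp9, 5 of 6 genes rose. Cyp9h1 had 2.64, 4.20 and 5.56 TPM in wild type and 12.7, 16.9 and 19.6 TPM in Clk-Jrk. The groups did not overlap, the increase was 4.78-fold (2.26 ± 0.13), and its adjusted p of 2.87e-08 was the smallest of the family. The other risers were Cyp9b2 (0.89 ± 0.12), Cyp9f2 (0.70 ± 0.12), Cyp9b1 (0.57 ± 0.22, adjusted p = 0.049) and Cyp9c1 (0.49 ± 0.09), and Cyp9f3 did not pass. The call of Cyp9b1 was lost in 10 of 16 alternatives, among them the replicate block (0.53, adjusted p = 0.0556) and the fit without replicate 2 (0.129, adjusted p = 0.833).

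In the CYP4 clan, 9 of 19 tested Cyp4 genes rose and none fell. Cyp4ac1 had 8.96, 13.1 and 26.9 TPM in wild type and 40.8, 54.8 and 63.0 TPM in Clk-Jrk. The groups were apart and the increase was 4.45-fold (2.15 ± 0.15, adjusted p = 1.63e-07). Cyp4ac2 rose 2.94-fold with overlapping libraries (medians of 6.58 and 17.5 TPM, adjusted p = 1.5e-05), whereas Cyp4ac3, the last gene of the same cluster, had medians of 3.68 and 2.71 TPM and did not pass (-0.17 ± 0.25, adjusted p = 0.617). Cyp4e2 had 80.7, 179 and 259.9 TPM in wild type and 396, 498 and 584 TPM in Clk-Jrk. No library overlapped, and the increase was 3.44-fold (1.78 ± 0.16, adjusted p = 2.17e-06). The remaining Cyp4 genes that rose were Cyp4aa1, Cyp4d20, Cyp4p1, Cyp4e1, Cyp4d2 and Cyp4e3, by log2 differences of 0.57 to 0.81, and Cyp311a1 and Cyp313b1 of the clan rose by 0.56 and 0.49. The call of Cyp4e3 was lost in 9 of 16 alternatives, among them either replicate left out (0.69 and 0.52) and the marker covariates (0.159). Cyp4g15, the paralogue of Cyp4g1, was at medians of 6.65 and 5.91 TPM (0.12 ± 0.10, adjusted p = 0.341).

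Of Cyp12, Cyp12a4 rose from a median of 118 to 155 TPM (0.64 ± 0.11, adjusted p = 0.000353), Cyp12e1 and Cyp12c1 rose by 0.56 and 0.46, and Cyp12a5 did not pass (0.38 ± 0.20, adjusted p = 0.136). Cyp12b2 went the other way, with 23.0, 41.2 and 60.2 TPM in wild type and 17.4, 23.4 and 26.2 TPM in Clk-Jrk. Its ranges overlapped at 23.0 to 26.2 TPM, and it fell 1.47-fold (-0.55 ± 0.12, adjusted p = 0.00179). Among CYP2 genes, Cyp305a1 rose from a median of 3.30 to 6.66 TPM (1.24 ± 0.13, adjusted p = 1.24e-05), and Cyp18a1 fell from 15.6 to 8.18 TPM (-0.54 ± 0.15, adjusted p = 0.00987). The call of Cyp18a1 held in 13 of 16 alternatives and was lost without replicate 2. That of Cyp12c1 held in 10 of 16, and its sign turned with the marker covariates (-0.078).

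The steepest decrease was that of Cyp6a18, with 6.32, 10.3 and 26.4 TPM in wild type and 0.0165, 3.97 and 11 TPM in Clk-Jrk. The groups overlapped, and the gene fell 4.66-fold (-2.22 ± 0.34, adjusted p = 0.000185). Its level tracked the summed Malpighian tubule markers in each group, with r = 0.73 and rho = 0.72 in wild type at 25 °C (n = 24, permutation p = 6e-05 and 0.00014, adjusted 0.000147 and 0.000378), r = 0.89 and rho = 0.88 at 18 °C (n = 22, p = 1e-05 each, adjusted 2.7e-05 and 3e-05) and r = 0.78 and rho = 0.81 in Clk-Jrk (n = 12, p = 0.00238 and 0.00192, adjusted 0.00428 and 0.00346). Without the 2 libraries farthest from the median marker level r was 0.68, 0.78 and 0.85, and within replicates it ran from 0.65 to 0.97. Cyp6a8, which rose, was set beside the same markers: at 18 °C r was 0.74 and rho 0.56 (n = 22, permutation p = 7e-05 and 0.00784, adjusted 0.000157 and 0.0121), with 0.49 without the 2 farthest libraries and 0.93 and 0.84 within replicates. For Cyp6a8 r was 0.33 both in wild type at 25 °C (n = 24, rho 0.2, permutation p = 0.117 and 0.338, adjusted 0.127 and 0.338) and in Clk-Jrk (n = 12, rho 0.4, permutation p = 0.3 and 0.199, adjusted 0.3 and 0.206). Within replicates 1 and 2 it was 0.51 and 0.59 in wild type and 0.78 and -0.37 in Clk-Jrk. With the marker covariates the log2 difference of Cyp6a18 was -0.98 and did not pass (adjusted p = 0.853). Cyp310a1 fell 3.64-fold, Cyp6a16 2.32-fold and Cyp6a19 1.73-fold, and each of these calls, like those of Cyp6a18 and Cyp12b2, was lost when either replicate was left out.

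**Figure D3:**
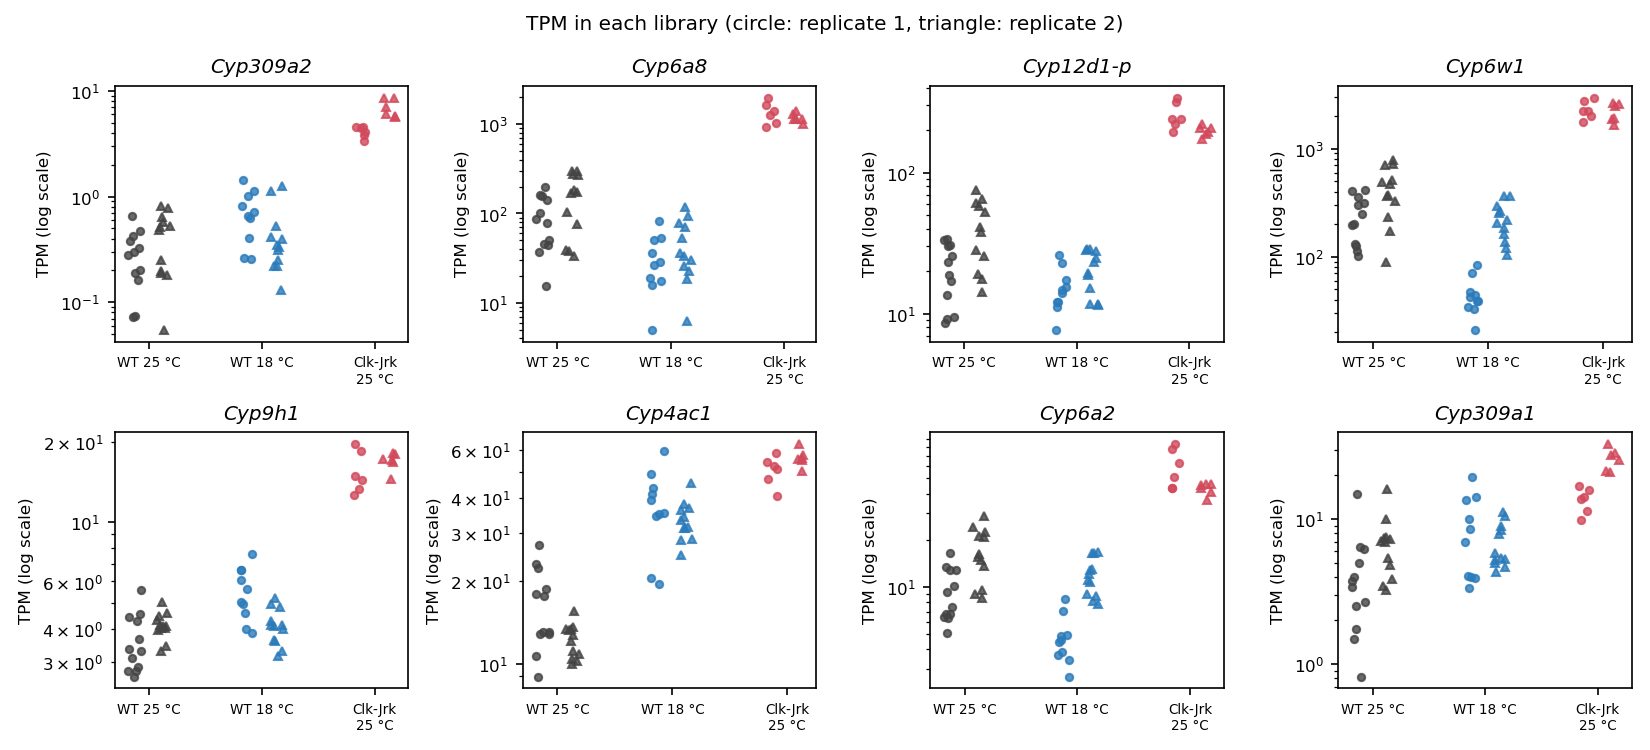
TPM of each library on a log scale for the 8 P450 genes with the largest log2 increase past the test in Clk-Jrk; circles are replicate 1 and triangles replicate 2, for wild type at 25 °C and 18 °C and for Clk-Jrk at 25 °C. Mutant libraries of Cyp309a2, Cyp6a8, Cyp12d1-p, Cyp6w1, Cyp9h1 and Cyp6a2 stand above all wild-type libraries, those of Cyp4ac1 overlap only wild type at 18 °C, and those of Cyp309a1 overlap both wild-type groups.

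The comparison of 18 °C with 25 °C in wild type asked how the levels depend on temperature, and it shares the 25 °C libraries with the comparison above. P450 genes changed both ways: of the 72 tested, 26 were higher and 11 lower at 18 °C (edgeR quasi-likelihood test, 22 and 24 libraries). Among all genes the shares were 23.3% higher and 25.2% lower, and the median log2 difference was 0.28 for P450 genes and -0.02 for all genes. The counts of higher, lower and not passing were 12, 5 and 18 in CYP3, 11, 4 and 10 in CYP4, 1, 1 and 6 in the mitochondrial clan and 2, 1 and 1 in CYP2. No P450 gene was without overlap between the temperatures in log2 CPM, and the share of all genes without overlap was not counted. Summed TPM without Cyp4g1 was 2344, 3064 and 3934 at 18 °C beside 1834, 2957 and 3987 at 25 °C.

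Ovary markers were lower at 18 °C (15 of 16, at 8.77 to 5908 TPM in sum beside 203 to 14820 TPM), haemocyte markers were higher (8 of 8, at 156 to 402 beside 82.2 to 222 TPM), and 1 of 8 fat body, 2 of 7 tubule and 2 of 5 oenocyte markers were lower. Muscle markers were higher (7 of 12), as were 4 of 9 neuron and photoreceptor markers and 1 of 11 gut markers. The part of muscle, haemocytes and oenocytes in the P450 counts was not tested. With the fat body and tubule markers as covariates 19 P450 genes were higher and 8 lower. Without the 10 libraries with RNA of other tissues 22 were higher and 14 lower. Shares of all genes called in these fits are not set beside the counts.

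The strongest change was that of Cyp4s3, with 5.60, 11.3 and 14.02 TPM at 25 °C and 0.756, 1.64 and 6.92 TPM at 18 °C. The ranges met only between 5.60 and 6.92 TPM, and Cyp4s3 fell 5.73-fold (-2.52 ± 0.16, adjusted p = 1.11e-10), lower at 12 of 12 times. In Clk-Jrk its median was 8.62 TPM beside 11.6 TPM in the matched wild type (-0.02 ± 0.13, adjusted p = 0.92). Cyp4e3 had 13.6, 34.5 and 76.5 TPM at 25 °C and 5.03, 11.7 and 22.8 TPM at 18 °C. It fell 3.05-fold with overlap (-1.61 ± 0.20, adjusted p = 1.29e-06). Cyp304a1 fell 3.25-fold from a median of 4.13 to 1.58 TPM, and Cyp4d1 2.20-fold from 1.998 to 0.771 TPM.

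Some genes that were high in Clk-Jrk were lower at 18 °C. Cyp6a8 had 15.3, 103 and 301.7 TPM at 25 °C and 4.93, 31.5 and 117 TPM at 18 °C. It fell 2.88-fold (-1.52 ± 0.30, adjusted p = 0.000262). Cyp6w1 had 321 TPM at 25 °C and 112 TPM at 18 °C in the median (-1.16 ± 0.40, adjusted p = 0.0205), and Cyp12d1-p had 27.2 and 16.4 TPM (-0.75 ± 0.25, adjusted p = 0.0161). The call of each of these 3 was lost with the marker covariates, and that of Cyp12d1-p also without replicate 2. Cyp6a2 had medians of 12.98 and 8.30 TPM and did not pass (-0.58 ± 0.29, adjusted p = 0.108). Cyp6a19, at 3.53, 21.6 and 203 TPM at 25 °C and 0.785, 6.62 and 28.1 TPM at 18 °C, fell 3.16-fold (-1.66 ± 0.34, adjusted p = 0.000395). It overlaps Cyp6a9 in the annotation, so the split of reads between them is uncertain. Cyp6a9 itself was higher at 18 °C (0.68 ± 0.14).

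The 3 Cyp4ac genes were all higher at 18 °C. Cyp4ac1 had 8.96, 13.01 and 26.9 TPM at 25 °C and 19.5, 34.6 and 59.6 TPM at 18 °C. The ranges met between 19.5 and 26.9 TPM, and the increase was 2.44-fold (1.29 ± 0.11, adjusted p = 7.87e-09). Cyp4ac3 rose by 1.12 ± 0.22 and Cyp4ac2 by 0.78 ± 0.14. All 3 tested Cyp28 genes were higher at 18 °C: Cyp28d1 by 0.73 ± 0.14 (medians of 51.8 and 80.5 TPM), Cyp28a5 by 0.63 ± 0.08 and Cyp28d2 by 0.57 ± 0.18. Cyp18a1 rose by 0.41 ± 0.12, from a median of 15.9 to 21.7 TPM. Cyp4g15 rose by 0.80 ± 0.10 from a median of 6.66 to 12.0 TPM. On the TPM scale its 18 °C libraries began at 9.90 TPM, above the highest 25 °C library at 9.11 TPM. Cyp318a1 rose by 0.96 ± 0.11 and Cyp4d8 by 0.67 ± 0.12, each higher at 12 of 12 times. In Cyp6, Cyp6a20 rose by 0.85 ± 0.13 (33.0 to 57.3 TPM), Cyp6a13 by 0.77 ± 0.07 (23.5 to 39.1 TPM), Cyp6g2 by 0.70 ± 0.18, Cyp6d4 by 0.65 ± 0.10 and Cyp6a17 by 0.54 ± 0.14. Cyp6g1 passed at 0.35 ± 0.14 (adjusted p = 0.038) and was lost in 10 of the alternatives. Of Cyp9 only Cyp9f2 passed (0.36 ± 0.10, adjusted p = 0.00734), and of Cyp309 neither gene did (Cyp309a1 0.40, adjusted p = 0.183, and Cyp309a2 0.55, adjusted p = 0.0536).

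**Figure D4:**
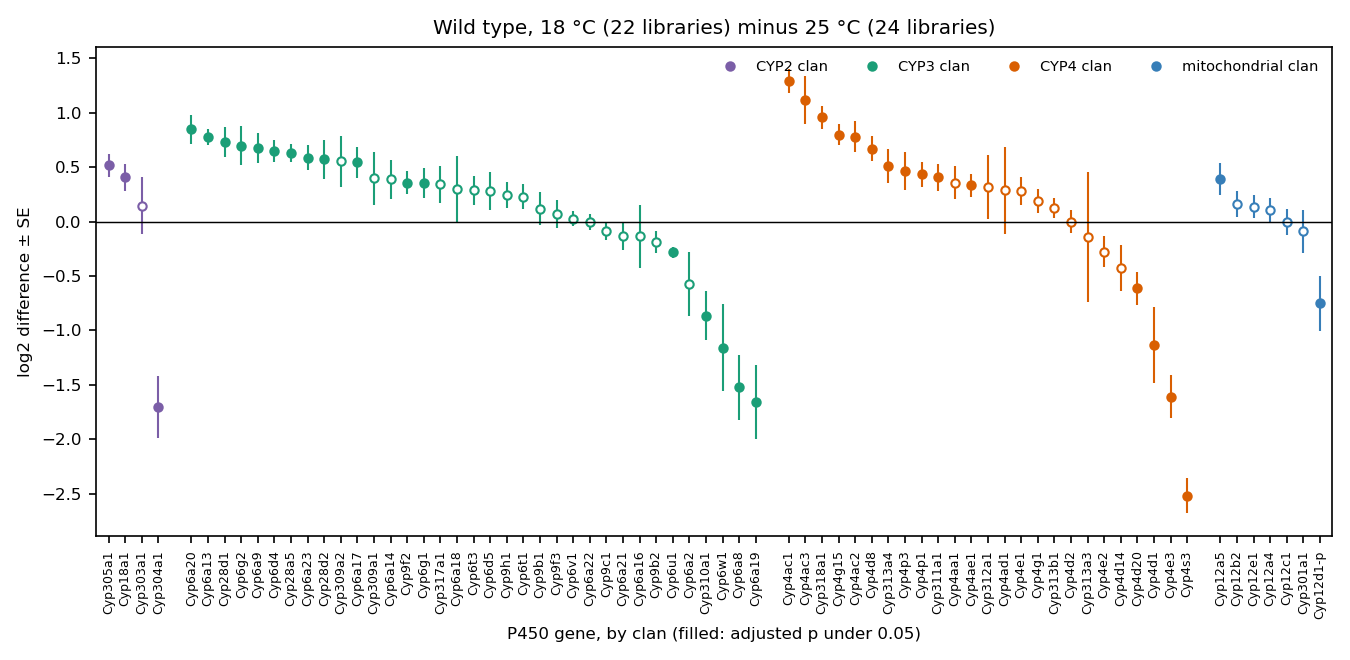
Log2 difference between 18 °C (22 libraries) and 25 °C (24 libraries) in wild type for 71 tested P450 genes, ordered within each clan; bars are SE and filled points passed adjusted p under 0.05. Filled points above 0 number 26 and below 0 number 11, from Cyp4ac1 at 1.29 to Cyp4s3 at -2.52. Cyp12d1-d is left out.

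Daily rhythm was tested with a 24 h cosine in each group. In wild type at 25 °C none of the 72 P450 genes passed (edgeR, 12 at an unadjusted p under 0.05, DESeq2 1), and 0.396% of all genes did. At 18 °C 2 passed (8 unadjusted), and 2.06% of all genes. In Clk-Jrk none passed (11 unadjusted, DESeq2 1), and 0% of all genes. A difference in rhythm was called for none of the 72 between temperatures (6 unadjusted, DESeq2 0), where 0.118% of all genes passed, and for none between Clk-Jrk and wild type (6 unadjusted, DESeq2 0), where 0% of all genes did. Of all 9348 genes, an unadjusted p under 0.05 was reached by 834 at 25 °C, 1423 at 18 °C and 1435 in Clk-Jrk. For the differences it was reached by 1303 between temperatures and 908 between Clk-Jrk and wild type.

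The rhythmic genes at 18 °C were Cyp6a21 and Cyp6t1. Cyp6a21 had its lowest mean TPM at ZT 14, with libraries of 6.17 and 9.04 TPM, and its highest at ZT 22, with 28.7 and 19.0 TPM. The fitted peak was at ZT 23.06 ± 0.73 h with an amplitude of 0.59 ± 0.11 on the log2 scale, a peak 2.26 times the trough (adjusted p = 0.0151). At 25 °C its mean was 7.79 TPM at ZT 12 and 21.7 TPM at ZT 22, with an amplitude of 0.47 ± 0.13 and a peak at ZT 21.36 (unadjusted p = 0.00491, adjusted p = 0.287). In Clk-Jrk the mean stayed between 31.6 and 37.3 TPM at all 6 times, above each of the wild-type means, with an amplitude of 0.16 ± 0.08. The difference in rhythm did not pass in either comparison. The call at 18 °C was lost without ZT 22 and without either replicate.

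Cyp6t1 at 18 °C had 33.4 and 24.8 TPM at ZT 6 and 13.4 and 12.4 TPM at ZT 14. Its fitted peak was at ZT 4.23 ± 0.69 h with an amplitude of 0.41 ± 0.07, a peak 1.77 times the trough (adjusted p = 0.0152). At 25 °C its means ran from 13.3 to 17.6 TPM, and in Clk-Jrk from 16.04 to 18.3 TPM. The rhythms differed between temperatures at an unadjusted p of 0.00173, which did not hold after adjustment (0.193). The call was lost in 7 alternatives, among them a fit with separate means for ZT 2 to 12 and for ZT 14 to 24. That fit splits the samples by time alone, since the labels do not say which incubator held each sample.

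Other genes are given as values, since none passed. Cyp6a20 at 25 °C had means from 22.2 TPM at ZT 8 to 49.8 TPM at ZT 18, a fitted peak at ZT 18.60 and an amplitude of 0.43 ± 0.11 (adjusted p = 0.17), and at 18 °C means from 40.2 TPM at ZT 10 to 97.8 TPM at ZT 22 (amplitude 0.36 ± 0.13, adjusted p = 0.277). Cyp309a2 at 25 °C had means of 0.627 TPM at ZT 4 and 0.108 TPM at ZT 22, with a fitted peak at ZT 7.95 and an amplitude of 0.70 ± 0.17 (adjusted p = 0.196). In Clk-Jrk its means ran from 4.51 to 6.39 TPM with an amplitude of 0.09 ± 0.23, and the difference in rhythm had an unadjusted p of 0.0163 and an adjusted p of 0.46. Cyp305a1 at 25 °C had means of 5.53 TPM at ZT 4 and 2.21 TPM at ZT 18 (adjusted p = 0.41). Cyp28d1 at 25 °C had a fitted amplitude of 0.53 ± 0.17 with a peak at ZT 12.00, and 0.41 ± 0.16 with a peak at ZT 10.24 at 18 °C (adjusted p = 0.254). In Clk-Jrk the smallest p was that of Cyp6w1 (unadjusted 0.00464, adjusted 0.303).

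**Figure D5:**
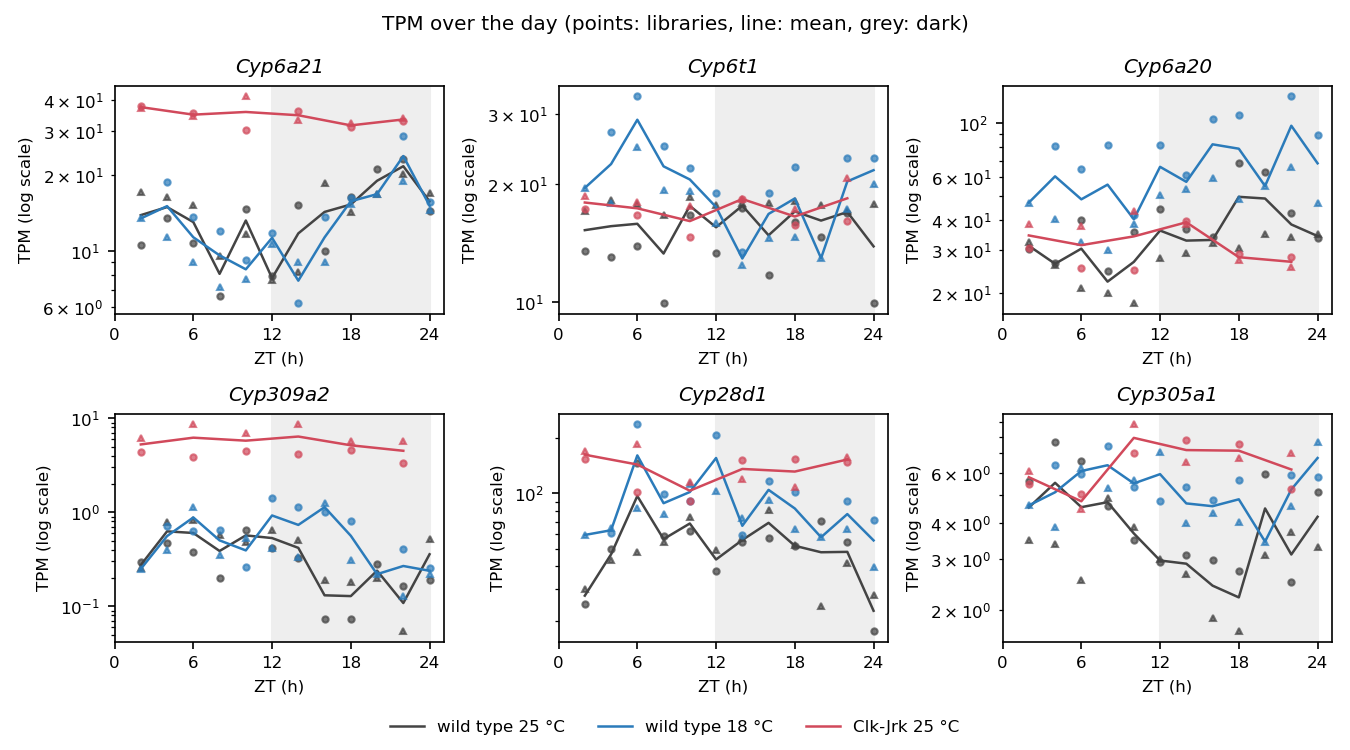
TPM on a log scale against ZT in hours for 6 P450 genes; points are libraries, lines are means, colours are the groups and the grey area is the dark phase. At 18 °C Cyp6a21 has its highest mean at ZT 22 and Cyp6t1 at ZT 6, while the Clk-Jrk line of Cyp6a21 lies between 31.6 and 37.3 TPM throughout.

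Partners of the P450 enzymes were read from lists of 5 electron donors, 9 haem genes, 11 regulators and 6 ecdysteroid P450 genes, of which 5, 8, 10 and 4 entered the tests. Among all genes tested, 18.6% were higher and 24.9% lower in Clk-Jrk, and 23.3% and 25.2% at 18 °C. Partner genes were not refitted under the alternatives. Of 5 electron donors, 4 were higher in Clk-Jrk: Cpr, the P450 reductase, by 0.51 ± 0.10 (medians of 1468 and 1819 TPM), Cyt-b5 by 0.57 ± 0.10, Fdx2 by 0.39 ± 0.06 and dare by 0.22 ± 0.06, and Fdx1 did not pass (0.24 ± 0.12, adjusted p = 0.124). At 18 °C Cpr was higher by 0.39 ± 0.09 (medians of 1503 and 2021 TPM at 25 °C and 18 °C), Fdx1 fell by 0.29 ± 0.10, and the other 3 did not pass. Of 8 genes of haem synthesis and breakdown tested, 5 were higher in Clk-Jrk, with Alas, the first enzyme of haem synthesis, at 0.50 ± 0.09, and Ppox, FeCH, Pbgs and the haem oxygenase Ho at 0.49, 0.40, 0.39 and 0.29. The smaller of these rises depended on scaling. Median TPM in matched wild type and Clk-Jrk was 18.07 and 17.55 for dare and 39.96 and 40.93 for Ho. It was 1842 and 2293 for Cyt-b5 and 54.75 and 59.84 for Fdx2. At 18 °C Alas (0.48 ± 0.09), Pbgs and Ho were higher and Urod and FeCH lower. Ho was rhythmic at 18 °C (adjusted p = 0.0335). Of 4 tested genes for ecdysteroid-making P450 enzymes under other symbols, none passed in Clk-Jrk, and spo (-1.28 ± 0.35) and sad (-0.61 ± 0.25) were lower at 18 °C, at medians of 0.680 and 1.17 TPM.

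Of 10 regulators tested, Keap1, which holds back the xenobiotic activator encoded by cnc, was higher in Clk-Jrk (0.46 ± 0.09), and 3 were lower. Pdp1, a clock-controlled PAR-bZIP factor, had 17.9, 37.2 and 62.2 TPM in wild type and 3.95, 9.30 and 21.99 TPM in Clk-Jrk. The ranges overlapped between 17.9 and 21.99 TPM, and Pdp1 fell by 1.69 ± 0.20 (adjusted p = 3.05e-05). EcR, the ecdysone receptor, fell by 1.34 ± 0.13 from a median of 5.87 to 1.88 TPM, and tgo by 0.31 ± 0.08. The activator cnc did not pass (-0.30 ± 0.12, adjusted p = 0.0627), nor did the nuclear receptor Hr96 (0.06 ± 0.07, adjusted p = 0.535). At 18 °C ERR was higher and maf-S, Hr96, EcR and Clk were lower, by log2 differences of -0.37, -0.30, -0.18 and -0.40. Pdp1 was rhythmic in wild type at 25 °C (adjusted p = 0.0109) and Clk at 18 °C (adjusted p = 0.000123), and the rhythm of Clk differed between temperatures (adjusted p = 0.032).

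In the BDGP6.54 annotation, 48 of the 83 genes lie in 17 clusters with gaps of at most 20000 bp, and the rest stand alone. Neighbours did not always change alike. Both genes of the Cyp309 cluster (2L:2562483-2573037) rose in Clk-Jrk, and neither passed at 18 °C. In the Cyp4ac cluster (2L:5264001-5270329) all 3 rose at 18 °C and 2 rose in Clk-Jrk. The largest cluster holds 9 genes on 2R (14871366 to 14903095), in the order Cyp6a22, Cyp6a17, Cyp6a23, Cyp6a19, Cyp6a9, Cyp6a20, Cyp6a21, Cyp6a8 and Cyp317a1. Of these, Cyp6a22, Cyp6a23, Cyp6a21 and Cyp6a8 rose and Cyp6a19 fell in Clk-Jrk, while Cyp6a17, Cyp6a23, Cyp6a9 and Cyp6a20 were higher and Cyp6a19 and Cyp6a8 lower at 18 °C. In the cluster of Cyp6g1, Cyp6g2 and Cyp6t3, Cyp6g1 alone passed in Clk-Jrk, and Cyp6t3, which has a role in ecdysteroid production, had medians of 1.67 and 1.41 TPM (-0.15 ± 0.17, adjusted p = 0.482). The arm with the largest number of the 83 genes is 2R (34), followed by 3R (16), X (14), 2L (13) and 3L (6).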

How the data were processed

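Libraries were made from poly(A) RNA, per the labels' protocols. The authors quantified transcripts with kallisto 0.46.2, per the submitters' processing notes, and deposited, for each group, unscaled estimated counts and TPM values by gene. Neither the transcriptome release nor the way transcripts were summed is given in the sources used here. Of the nonzero deposited counts, 80.5% were whole to within 0.001.

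Counts were rounded and scaled by TMM, and the 9348 genes kept by filterByExpr of edgeR 4.0.16 (R 4.3.3) over the 60 libraries were tested by quasi-likelihood with Benjamini-Hochberg adjustment at 0.05. Levels were compared as means per group and ZT over shared times, Clk-Jrk against the 12 wild-type libraries at its times, and rhythm as cosine and sine terms of 24 h. Amplitudes come from log2 CPM with a prior count of 2. Levels are deposited TPM. Library totals set the precision, which the spread between libraries includes. Symbols came from a FlyBase ID table (13950 of 13969 matched; 2 pseudogenes of the rule are not used here). Members, lists and tests were chosen with earlier results of these data known. Named genes were the 15 highest, the 10 higher and 10 lower with the smallest p per comparison, the first 6 per rhythm test and those with a described role; others were named after their values were seen, to complete a family or cluster. List genes outside the tables were not analysed here. Alternatives were RLE, DESeq2 1.42.0, no filter, limma 3.58.1 on log2(TPM + 1), a replicate block, the incubator step, other handling of the identical pair, and each replicate or time left out. Leaving out 10 libraries and marker covariates were added after seeing the data. The fits were tested on simulated data. Tables and plots used Python 3.11.15.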

Additional observations from a re-analysis of the deposited data

How the results depend on the processing

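Each count of P450 genes was recomputed under every alternative. Shares of all genes called are not given in this section, so a changed count need not be particular to P450 genes. Genes higher at 18 °C (26) numbered 19 to 33 and genes lower (11) 8 to 14. Genes higher in Clk-Jrk (38) numbered 27 on log2(TPM + 1), 10 with marker covariates, 15 to 42 when a replicate or time was left out (31 to 41 over the times) and 36 to 42 otherwise. Genes lower in Clk-Jrk (6) numbered 12 on log2(TPM + 1), 3 without the libraries with RNA of other tissues, 0 with covariates, and 1 to 6 when replicates or times were left out. Of the 44 genes called in Clk-Jrk, 44 kept their call with RLE and DESeq2, 33 on log2(TPM + 1), 36 without those libraries, 37 and 15 without replicates 1 and 2, and 10 with covariates. Of the 37 called at 18 °C, 32 to 37 did so under each alternative but 26 without replicate 2 and 23 with covariates. Covariates turned the sign of Cyp6t1 (-0.052), Cyp6a19 (0.015) and Cyp12c1 (-0.078). Rhythm calls at 25 °C (0) were 1 with DESeq2 and 1 without libraries with RNA of other tissues. At 18 °C (2) they were 1 on log2(TPM + 1), 4 with the replicate block and 1 with the step between ZT 2 to 12 and ZT 14 to 24. They were 0 to 2 when replicates or times were left out. In Clk-Jrk (0) DESeq2 gave 1, and differences from wild type (0) numbered 0 to 1 when times were left out, 1 without ZT 14. The cause of these changes was not tested.

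Replicate numbers are shared by all groups, but the labels do not pair the samples. With the replicate block 33 genes were higher and 13 lower at 18 °C, and 37 and 6 in Clk-Jrk. Deviations of same-numbered samples correlated at r = 0.631 between temperatures and -0.146 between genotypes across 9348 genes. The replicate series thus shared a pattern between temperatures, which the main temperature test did not take into account. Genes under 1 TPM rest on few counts, copies such as Cyp12d1-d are not resolved, and the 12 Clk-Jrk libraries limit its rhythm tests.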
